A study of Rattus norvegicus with 12 samples.

Results

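Genes that mark oligodendrocyte progenitor cells (OPCs) and newly formed oligodendrocytes were examined in the central nucleus of the amygdala (CeA) of rats exposed to alcohol vapor. The set was chosen by gene name and holds 10 of the 37209 genes listed: *Pdgfra*, *Cspg4*, *Lhfpl3* and *C1ql1* for precursors, *Gpr17*, *Neu4* and *Bmp4* for committed precursors, and *Enpp6*, *Bcas1* and *Itpr2* for newly formed oligodendrocytes. All 10 are listed in the count table, 9 had counts and passed the filter on low counts, and *Gpr17* was at 0 in every rat. The samples were poly-A RNA libraries from CeA punches of 12 adult male wild-type Sprague Dawley rats aged 14 to 16 weeks, 1 library per rat. The CIE group (chronic intermittent ethanol, n = 6, rats 1 to 6) received daily periods of ethanol vapor separated by periods of air over several weeks, and the Control group (n = 6, rats 7 to 12) was kept in air throughout. Both groups were killed under isoflurane at the end of the last exposure, while the CIE rats were still intoxicated. All 12 rats shared strain, genotype and tissue. Per the study they were housed in groups, and which rats shared a cage is not given in the labels. The tests therefore treat the rats of a group as independent.

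Oligodendrocytes arise throughout life from precursors that divide in response to platelet-derived growth factor and that carry the NG2 proteoglycan on their surface. A precursor that commits to differentiation switches off the growth factor receptor, passes through a short stage marked by *Gpr17*, *Bmp4* and *Neu4*, and becomes a newly formed oligodendrocyte that expresses *Enpp6* and *Bcas1* before it builds compact myelin. In the adult brain few cells are in transit between the stages at any moment. Genes of the committed and newly formed stages are therefore read as a sign of ongoing oligodendrocyte production. Several of these genes are also used by other cells: *Pdgfra* by perivascular fibroblasts, *Cspg4* by pericytes and *Itpr2* by astrocytes. In a bulk tissue sample, fewer cells of a type and less RNA per cell cannot be told apart.

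Total counts lay between 61978486 and 78441691 in CIE rats and between 39082548 and 95647601 in Controls. Markers of central amygdala neurons were present in every rat, with summed levels of 230 to 457 CPM (read counts scaled to a common library size, the usual unit of edgeR) in CIE rats and 293 to 479 CPM in Controls. The punches differed in what they held of neighboring regions. Summed striatal projection neuron markers reached 3139 CPM in CIE rat 2 and 3483 CPM in Control rat 10, against 236 to 1446 CPM in the other 10 rats. Summed cortical glutamatergic markers reached 406 CPM in CIE rat 1, 261 CPM in CIE rat 4, 209 CPM in CIE rat 2 and 152 CPM in Control rat 10, against 8.90 to 58.2 CPM in the other 8 rats. These are markers of neurons, and no separate measure was made of the white matter in each punch.

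The question addressed was whether CIE altered the levels of stage genes along with those of mature oligodendrocytes. *Enpp6*, an early marker of newly formed oligodendrocytes, was lower in the CIE group, at 0.607 times the Control level, and it was the only member with a nominal p value below 0.05. The precursor genes *Pdgfra*, *Cspg4*, *Lhfpl3* and *C1ql1* lay between 0.890 and 1.07 times the Control level and did not pass the test. Mature myelin genes had a median log2 fold change of -0.49 in the same rats. Thus 1 of 9 tested members (11.1%) passed the nominal threshold in edgeR's quasi-likelihood F test, against 8.31% of all 20944 genes tested, a share too close to the background to be read as a result about the members as a set. At 5% FDR, adjusted over all genes tested, 0 members passed in edgeR, against 0.363% of all genes, and 0 passed in limma-voom with sample quality weights. In DESeq2 *Enpp6* passed, with an FDR of 0.0250. The median log2 fold change of the 9 members was -0.17, and 8 were below 0, against a median of 0.00096 and 49.7% below 0 over all genes. In 0 of 9 members were the 2 groups free of overlap, against 0.893% of all genes tested.

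Of the precursor genes, *Pdgfra* encodes the receptor through which PDGF-A drives precursor division. Its expression, given as CPM with TMM normalization, had a lowest value of 73.0, a median of 78.0 and a highest value of 104 in the CIE group, and 81.0, 96.0 and 103 in Controls. In 4 of 6 CIE rats *Pdgfra* was below every Control rat, while CIE rats 5 and 6 lay within or above the Control range. The log2 fold change was -0.17 (SE 0.10, 95% interval -0.37 to 0.04), with a nominal p value of 0.104 and an FDR of 0.703. With cortical and striatal marker scores as covariates *Pdgfra* was at -0.11 (nominal p 0.238). *Cspg4*, which encodes the NG2 proteoglycan, was at 48.4 ± 6.96 CPM (SD, n = 6) in CIE rats and 45.2 ± 3.14 CPM (SD, n = 6) in Controls. It was the only member with a log2 fold change above 0, at 0.10 (95% interval -0.09 to 0.29, FDR 0.826), and at 0.037 without CIE rat 6 and 0.16 without CIE rat 3.

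*C1ql1*, a secreted C1q-like protein that binds an adhesion receptor, was at 26.6 ± 3.53 CPM in CIE rats and 29.0 ± 2.82 CPM in Controls (SD, n = 6 each). Its log2 fold change was -0.13 (95% interval -0.33 to 0.07, FDR 0.788). It was -0.048 with the region scores as covariates (nominal p 0.562) and -0.078 without Control rat 8. *Lhfpl3*, a tetraspan membrane protein gene, ranged from 38.7 to 67.7 CPM in CIE rats (median 55.2) and from 39.7 to 66.1 CPM in Controls (median 62.7). Its log2 fold change was -0.12 (95% interval -0.42 to 0.18, FDR 0.872). The lowest *Lhfpl3* values of the groups, 38.7 CPM in CIE rat 2 and 39.7 CPM in Control rat 10, belonged to the libraries with the highest striatal markers. With the region scores as covariates the log2 fold change of *Lhfpl3* was -0.023 (nominal p 0.787). It was -0.040 without CIE rat 2, -0.21 without Control rat 10 and -0.13 without both (nominal p 0.130).

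The promoters of 8 members are given in RefSeq (GRCr8), as 250 bases before and 50 bases after the listed transcript start, and those of *C1ql1* and *Bcas1* are not shown. They were searched on both strands for CAGCTG, an E-box that reads the same on either strand and is bound by OLIG2 and other basic helix-loop-helix factors, and for ACAAAG, a core recognized by SOX factors. The E-box was found in 4 of the 8 windows (*Lhfpl3*, *Neu4*, *Bmp4* and *Enpp6*), against 15.1% of 33469 promoters of the same length. The SOX core was found in 1 window, that of *Enpp6*, against 18.8% of all promoters. Such matches describe the letters and not bound sites. The windows printed are those of *Enpp6*, the member that passed the nominal threshold and held both motifs, of *Lhfpl3*, with 3 E-boxes spaced 9 bases apart, and of *Pdgfra* and *Cspg4*, the precursor pair whose levels moved most closely together and which held neither. Capitals mark the matches, and the SOX core of *Enpp6* lies on the opposite strand and therefore reads CTTTGT.
*Enpp6* (GRCr8 chr16:52026679-52026978, minus strand): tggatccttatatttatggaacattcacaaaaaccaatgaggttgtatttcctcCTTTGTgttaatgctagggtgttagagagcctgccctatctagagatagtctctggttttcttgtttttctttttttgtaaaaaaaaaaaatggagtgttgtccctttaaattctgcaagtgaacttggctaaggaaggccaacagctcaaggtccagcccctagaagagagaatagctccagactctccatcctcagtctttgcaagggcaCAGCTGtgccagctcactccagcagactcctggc
*Lhfpl3* (GRCr8 chr4:13271325-13271624, minus strand): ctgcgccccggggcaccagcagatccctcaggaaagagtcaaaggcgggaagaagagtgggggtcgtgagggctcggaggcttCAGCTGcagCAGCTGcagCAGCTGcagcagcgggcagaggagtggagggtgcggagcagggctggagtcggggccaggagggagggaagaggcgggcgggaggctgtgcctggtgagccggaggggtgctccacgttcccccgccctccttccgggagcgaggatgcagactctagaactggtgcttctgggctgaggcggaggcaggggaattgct
*Pdgfra* (GRCr8 chr14:33408467-33408766, minus strand): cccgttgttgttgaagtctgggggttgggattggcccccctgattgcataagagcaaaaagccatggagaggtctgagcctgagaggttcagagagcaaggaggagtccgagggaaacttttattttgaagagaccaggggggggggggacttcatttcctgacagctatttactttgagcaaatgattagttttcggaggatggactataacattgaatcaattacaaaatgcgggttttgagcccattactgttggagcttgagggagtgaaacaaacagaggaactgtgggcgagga
*Cspg4* (GRCr8 chr8:66160692-66160991, plus strand): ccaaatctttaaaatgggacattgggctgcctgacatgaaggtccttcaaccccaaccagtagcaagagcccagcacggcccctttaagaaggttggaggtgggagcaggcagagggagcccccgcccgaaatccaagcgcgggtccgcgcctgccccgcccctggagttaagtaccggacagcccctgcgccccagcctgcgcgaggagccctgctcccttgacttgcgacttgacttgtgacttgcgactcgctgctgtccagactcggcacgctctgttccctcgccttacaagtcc

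**Figure D1:**
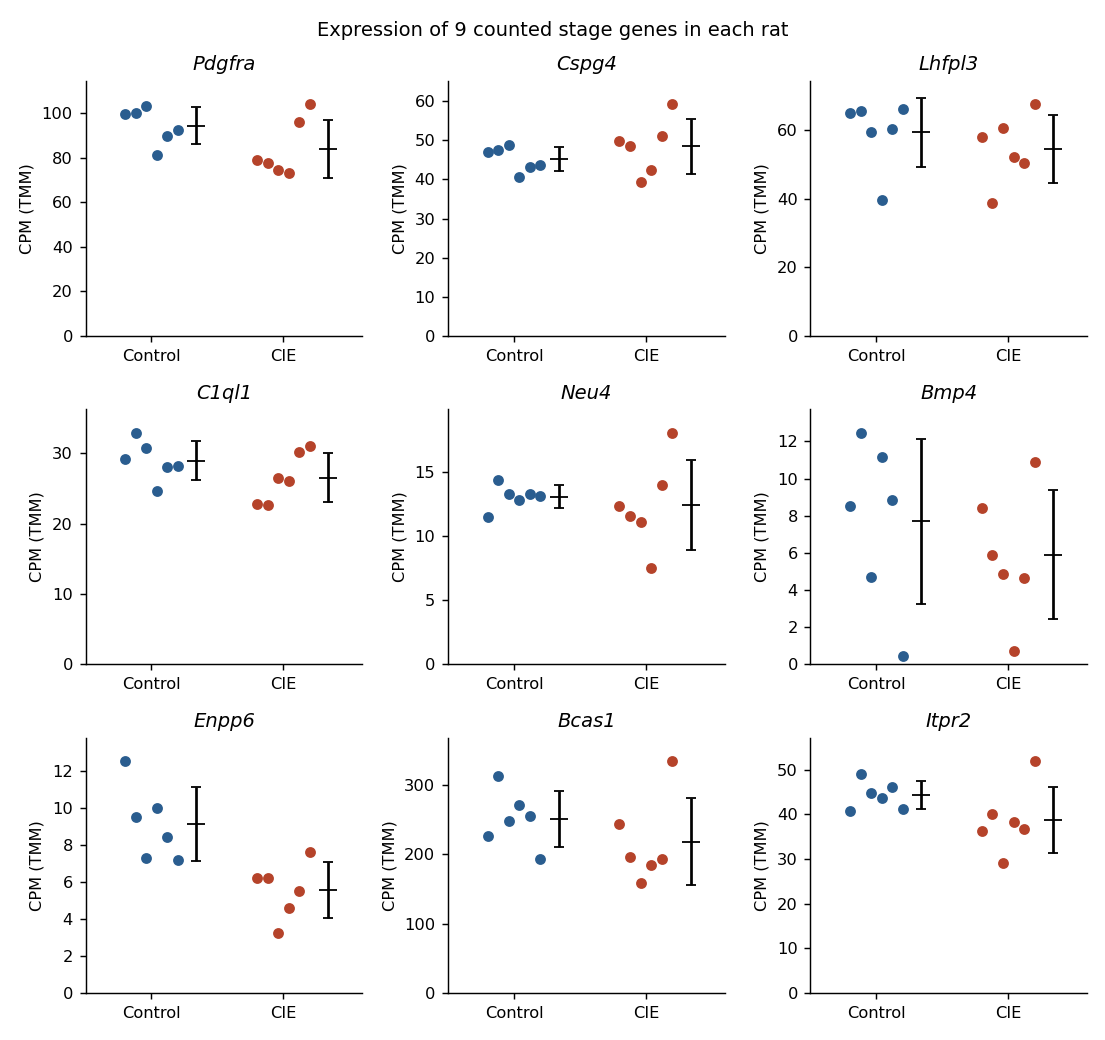
Expression of the 9 members with counts in each rat (vertical axis, CPM with TMM normalization, starting at 0), with Control rats in blue and CIE rats in red, and bars for the mean ± SD of 6 rats. *Enpp6* shows 5 of 6 CIE rats below every Control rat, and *Bmp4* shows 1 very low rat in each group.

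Among the genes of committed precursors, *Gpr17*, an orphan-type receptor of the brief premyelinating stage, had 0 counts in all 12 rats. A count of 0 allows up to 3 counts, which corresponds to 0.0314 to 0.0768 CPM on total counts in these libraries and covers counting error only. Such a 0 does not show that *Gpr17* RNA was absent. In the RefSeq annotation, *Gpr17* lies wholly inside the span of *Lims2*, a gene for a LIM domain protein of cell adhesions, whereas none of the other 9 members lies inside another protein-coding gene. Of 568 protein-coding genes that lie inside another one there, 41.7% had 0 counts in every rat, against 4.04% of 16063 that do not. The overlap setting of the counting is not given in the sources used here, and its part in the 0 was not tested. *Lims2* itself was lower in the CIE group, at 65.1 ± 10.6 CPM against 102 ± 9.39 CPM (SD, n = 6 each), a log2 fold change of -0.65 (SE 0.10, FDR 0.0134). Whether its counts hold reads from *Gpr17* was not tested, and no value for *Gpr17* can be drawn from them.

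*Neu4*, a sialidase gene of the lineage, was at 12.4 ± 3.49 CPM in CIE rats and 13.1 ± 0.914 CPM in Controls (SD, n = 6 each). The CIE rats spread from 7.54 CPM in rat 4 to 18.1 CPM in rat 6 and enclosed all Control rats, which lay between 11.5 and 14.4 CPM. Its log2 fold change of -0.07 (95% interval -0.41 to 0.26, FDR 0.937) became 0.037 without CIE rat 4. *Bmp4*, which encodes a secreted ligand of the bone morphogenetic protein (BMP) pathway, was the most variable member. It was at 0.714 CPM (48 counts) in CIE rat 4 and 0.468 CPM (35 counts) in Control rat 12, while the other 10 rats lay between 4.65 and 12.5 CPM. With 1 such rat in each group, the 95% interval of its log2 fold change of -0.38 ran from -1.66 to 0.91 (FDR 0.916). It was -0.14 without CIE rat 4, -0.17 without Control rat 8, -0.63 without Control rat 12 and -0.64 without CIE rat 6.

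Of the newly formed oligodendrocyte genes, *Enpp6* encodes a choline-specific phosphodiesterase that is switched on as precursors begin to differentiate. Its lowest, median and highest values were 3.23, 5.84 and 7.60 CPM in CIE rats and 7.18, 8.96 and 12.5 CPM in Controls. In 5 of 6 CIE rats it was below every Control rat, and CIE rat 6 overlapped with Control rats 9 and 12. The log2 fold change was -0.72 (SE 0.19, 95% interval -1.13 to -0.31), with nominal p 0.00205 (rank 234 among all genes tested) and FDR 0.182 in edgeR. The difference in mean log2 CPM had a two-sided exact permutation p of 0.00649, where 6 rats against 6 cannot give less than 0.00216. Leaving out any 1 rat gave *Enpp6* a nominal p between 0.000677 and 0.00614, and its log2 fold change lay between -0.83 and -0.60. It was -0.80 with cortical and striatal marker scores as covariates (nominal p 0.00258) and -0.73 without CIE rat 2 and Control rat 10 (nominal p 0.00538), the latter a fit added after the values were seen.

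*Bcas1*, which marks oligodendrocytes that have begun to myelinate, was at 218 ± 63.4 CPM in CIE rats and 251 ± 40.5 CPM in Controls (SD, n = 6 each). The log2 fold change was -0.20 (95% interval -0.55 to 0.15, FDR 0.807), and the highest value of all 12 rats, 335 CPM, belonged to CIE rat 6. The log2 fold change of *Bcas1* was -0.12 without CIE rat 3 and -0.12 without Control rat 8. *Itpr2*, a calcium release channel of the endoplasmic reticulum, had values of 29.1, 37.5 and 51.9 CPM (lowest, median and highest) in CIE rats and 40.7, 44.2 and 49.1 CPM in Controls. In 5 of 6 CIE rats *Itpr2* was below every Control rat, and CIE rat 6 was above them all. Its log2 fold change was -0.19 (95% interval -0.43 to 0.04, nominal p 0.0953, FDR 0.693; exact permutation p 0.0996), and -0.12 without CIE rat 3. Without CIE rat 6, *Itpr2* (-0.30, nominal p 0.00264), *Bcas1* (-0.36, nominal p 0.0122) and *Pdgfra* (-0.24, nominal p 0.0172) passed the nominal threshold. With *Enpp6*, 4 members did in that fit, against 1954 of all 21093 genes tested. At 5% FDR 0 members passed there, against 154 of all genes. This rat had the highest CIE value in each of the 9 members, so leaving it out lowered the CIE mean of each.

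**Figure D2:**
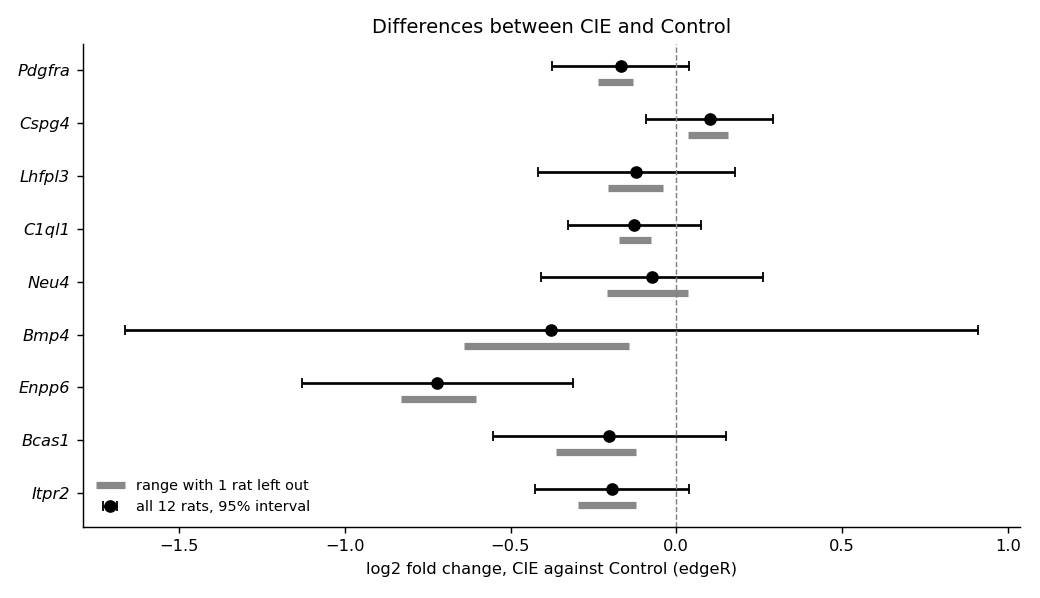
Log2 fold change of each member, CIE against Control (horizontal axis), with points and whiskers for the edgeR estimate and its 95% interval over 12 rats, and gray bars for the range of estimates with 1 rat left out. The interval of *Enpp6* (-1.13 to -0.31) lies below 0, those of the other 8 genes include 0, and that of *Bmp4* is the widest.

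The members were set beside other genes of the lineage, in lists described by their counts and medians. Of 15 other precursor genes, 2 were lower at a nominal p value below 0.05 and 13 did not pass, with a median log2 fold change of -0.08. Those 2 were *Rlbp1*, a retinoid-binding protein gene (-0.46, FDR 0.103), and *Matn4*, a matrix protein gene (-0.56, FDR 0.218). Of 13 other newly formed oligodendrocyte genes tested, 8 (61.5%) were lower and none was higher, with a median of -0.27. *Casr*, the calcium-sensing receptor gene, fell from 4.58 ± 1.02 CPM in Controls to 2.04 ± 0.510 CPM in the CIE group (SD, n = 6 each) without overlap of the groups. Its log2 fold change was -1.16 (SE 0.19, FDR 0.0159). *Rras2*, a small GTPase gene, had a log2 fold change of -0.40 (FDR 0.169).

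Of 20 mature myelin genes, 14 (70.0%) were lower and none was higher, with a median log2 fold change of -0.49. *Ugt8*, which makes the galactolipids of myelin, had the smallest FDR, 0.0727, at a log2 fold change of -0.96, and *Cldn11*, a claudin of myelin, had one of -0.77 (FDR 0.153). The lineage factors *Olig1* (-0.36, nominal p 0.0129), *Olig2* (-0.32, nominal p 0.0645) and *Sox10* (-0.28, nominal p 0.0580) lay between the precursor and the mature myelin lists. Over all genes tested, 4.31% were lower at the nominal threshold (903 genes) and 837 genes were higher. The nominal count of the newly formed list dropped to 5 without Control rat 8 and also without Control rat 9. Differences between the lists were not tested, and their genes share rats.

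**Figure D3:**
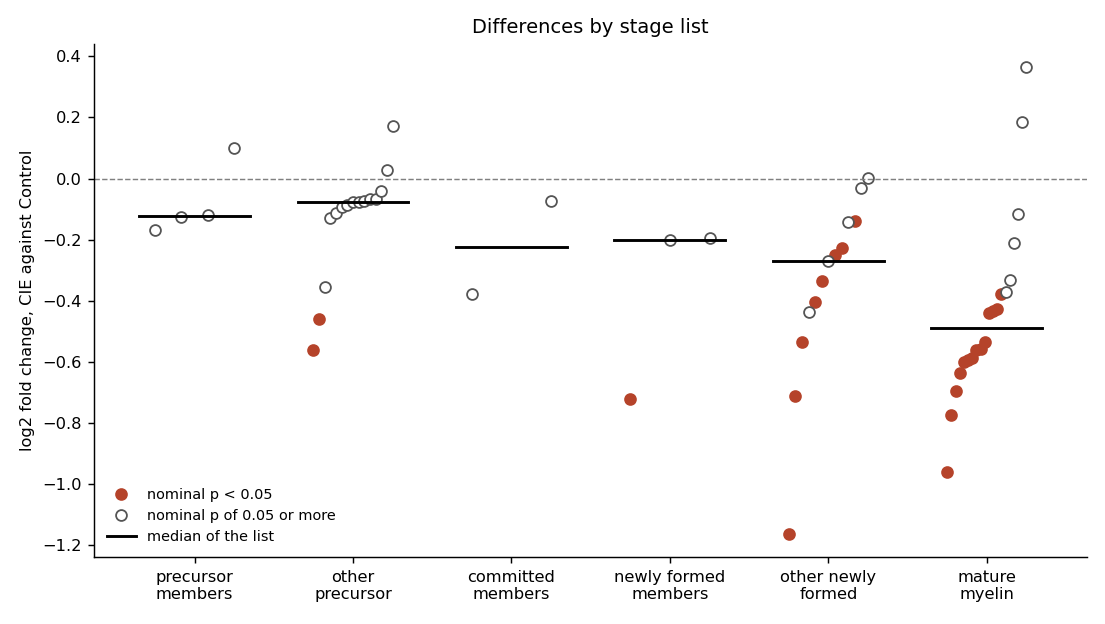
Log2 fold changes, CIE against Control (vertical axis), of single genes in lists ordered from precursor to mature myelin, with filled points for a nominal p below 0.05 and lines for list medians. Medians lie at -0.12 and -0.08 in the precursor lists and at -0.22 in the list of 2 tested committed members. They lie at -0.20 and -0.27 in the newly formed lists and at -0.49 in the mature myelin list.

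Ligands, receptors and relatives of the members were counted in the same way. In the PDGF system, the ligand genes did not pass, among them *Pdgfa*, the ligand of PDGFRA, at a log2 fold change of -0.02 and *Pdgfc* at 0.21 (nominal p 0.303). *Pdgfrb*, the receptor of pericytes, was lower at -0.45 (nominal p 0.000369, FDR 0.0758) and made up the 1 of 5 genes that passed. In the BMP pathway 1 of 26 genes passed, the ligand gene *Bmp5* at 1.90 (nominal p 0.0175), with 0.247 to 4.97 CPM in CIE rats and 0.158 to 0.801 CPM in Controls. *Bmp6*, another ligand gene, had a log2 fold change of 0.36 (nominal p 0.0904), and the list median was 0.02. Among 17 tested relatives of members, 4 were lower and 2 higher. *Lhfpl2* was lower without overlap of the groups, at 22.2 ± 1.80 CPM against 28.8 ± 2.20 CPM (SD, n = 6 each; log2 fold change -0.38, FDR 0.0400), and *Lhfpl5* was higher (0.26, nominal p 0.00642). Of 15 cell division genes, 3 were lower at the nominal threshold and none higher. *Ccnd1*, the cyclin D1 gene, was lower at -0.40 (nominal p 0.000396, FDR 0.0765) and *Top2a*, the DNA topoisomerase of dividing cells, at -0.89 (nominal p 0.00277, FDR 0.211). The third, *Aurkb*, was at -2.09 (nominal p 0.0139, FDR 0.424) with few counts and a wide spread in Controls. It had 0.197 to 0.433 CPM in CIE rats and 0.103 to 5.50 CPM in Controls, and 0 CIE rats lay below every Control rat.

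Markers of other cell types that share members were measured in the same rats, and none of them was at 0 in all rats. Of 9 pericyte markers, 7 were lower and none higher, with *Kcnj8* at -0.96 (FDR 0.0300) and *Pdgfrb* as given above, and their summed level was 115 to 179 CPM in CIE rats and 151 to 183 CPM in Controls. *Cspg4*, which pericytes share, had a log2 fold change of 0.10. Of 8 fibroblast markers, 5 were lower, with *Igf2* at -1.02 (FDR 0.0207) and *Col3a1* at -1.07 (FDR 0.0243), and their summed level was 45.7 to 94.2 CPM in CIE rats and 103 to 165 CPM in Controls. The part of these cells in the *Pdgfra* and *Cspg4* values was not tested. Of 8 astrocyte markers, *Aqp4*, the water channel gene, was lower (-0.28, nominal p 0.0163) and *Gjb6* higher (0.34, nominal p 0.0447), and the summed level of 1911 to 2467 CPM in the CIE group overlapped with 1985 to 2339 CPM in Controls. The part of astrocytes in the *Itpr2* value was not tested either.

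Lists with no shared member were counted as well. Of 8 endothelial markers 5 were lower and 1 higher (*Slco1c1* at -0.39 and *Pecam1* at -0.31 had the smallest p values). Of 7 microglial markers 1 was lower (*Cx3cr1* at -0.28, with *Csf1r* at -0.13 not passing). Of 8 neuronal markers 1 was lower (*Tubb3* at -0.20, with *Stmn2* at -0.17 not passing). Of 6 central amygdala markers 3 were lower, among them *Crh* at -0.45 (nominal p 0.0193) and *Tac3* at -0.37 (nominal p 0.0309). Of 6 cortical markers 1 was higher (*Neurod2* at 1.90, with *Slc17a7* at 2.01 and a nominal p of 0.0901), and of 7 striatal markers none passed (*Drd2* at 0.27 and *Rgs9* at 0.27).

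From rat to rat, *Bcas1*, *Itpr2* and *Enpp6*, the genes listed for newly formed oligodendrocytes, followed the level of mature myelin transcripts, in a family of 9 correlations. With group means removed, members of other stages did so as well, as given below. The part of mature oligodendrocytes in the values of these genes was not tested. The summed level of the 20 mature myelin genes was 6402 to 15522 CPM in CIE rats and 9574 to 17964 CPM in Controls. On the log2 scale, *Bcas1* correlated with it at Pearson's r = 0.92 over the 12 rats (permutation p = 8.0e-05, FDR 0.0141 over all genes tested) and at Spearman's rho = 0.94 (permutation p = 4.0e-05). *Itpr2* followed at r = 0.87 (permutation p = 0.000190, FDR 0.0260; rho = 0.80, permutation p = 0.00269). *Enpp6* did so at r = 0.86 (permutation p = 0.000220, FDR 0.0286; rho = 0.83, permutation p = 0.00140). By Pearson's r these 3 genes were the members at 5% FDR, which 1.04% of all genes tested reached, and 6 of 9 members had a permutation p below 0.05, against 9.50% of all genes. By Spearman's rho *Bcas1* passed (FDR 0.0190), whereas *Enpp6* (FDR 0.119) and *Itpr2* (FDR 0.168) did not. Whether the correlations of 2 members differ from each other was not tested.

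As the myelin level and *Enpp6* were lower in CIE rats, the correlations were also computed within each group of 6 rats. *Bcas1* gave r = 0.96 in CIE rats and 0.96 in Controls (exact permutation p = 0.00278 in each). *Itpr2* gave 0.89 in the CIE group (exact permutation p = 0.0417) and 0.71 in Controls (exact permutation p = 0.113). *Enpp6* gave 0.93 in the CIE group (exact permutation p = 0.00972) and 0.40 in Controls (exact permutation p = 0.435), where Control rat 7 had the highest *Enpp6* value, 12.5 CPM, at 13438 CPM of mature myelin transcripts. With group means removed, r over the 12 rats was 0.96 for *Bcas1*, 0.82 for *Itpr2* and 0.75 for *Enpp6*. It was 0.74 for *Cspg4*, 0.73 for *Bmp4*, 0.66 for *Neu4* and 0.55 for *Pdgfra*. For *C1ql1* it was 0.27 and for *Lhfpl3* -0.03. Following the myelin level was thus not particular to the newly formed genes. Without CIE rats 3 and 4, which lay farthest from the median myelin level, r over the other 10 rats was 0.87 for *Bcas1*, 0.81 for *Itpr2* and 0.69 for *Enpp6*.

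None of the other 6 members reached 5% FDR by Pearson's r or Spearman's rho. *Pdgfra* had r = 0.68 (permutation p = 0.0174, FDR 0.337; rho = 0.72, permutation p = 0.0107), with 0.81 in the CIE group (exact permutation p = 0.0375), -0.03 in Controls (exact permutation p = 0.944) and 0.42 without CIE rats 3 and 4. *Neu4* had r = 0.63 (permutation p = 0.0208, FDR 0.369; rho = 0.71, permutation p = 0.0128) and *Bmp4* had r = 0.61 (permutation p = 0.0298, FDR 0.427; rho = 0.77, permutation p = 0.00481). Without the same 2 rats r was 0.40 for *Neu4* and 0.61 for *Bmp4*. Within CIE rats and Controls r was 0.79 and 0.30 for *Neu4* (exact permutation p = 0.0764 and 0.528) and 0.61 and 0.92 for *Bmp4* (exact permutation p = 0.228 and 0.0208). *Cspg4* had r = 0.35 (permutation p = 0.265, FDR 0.857; rho = 0.28, permutation p = 0.378) over all rats. Within groups its r was 0.98 in CIE rats (exact permutation p = 0.00417) and 0.10 in Controls (exact permutation p = 0.868), and without CIE rats 3 and 4 it was -0.08. *C1ql1* had r = 0.44 (permutation p = 0.150; rho = 0.52, permutation p = 0.0839) and *Lhfpl3* had r = 0.12 (permutation p = 0.703; rho = 0.25, permutation p = 0.433).

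**Figure D4:**
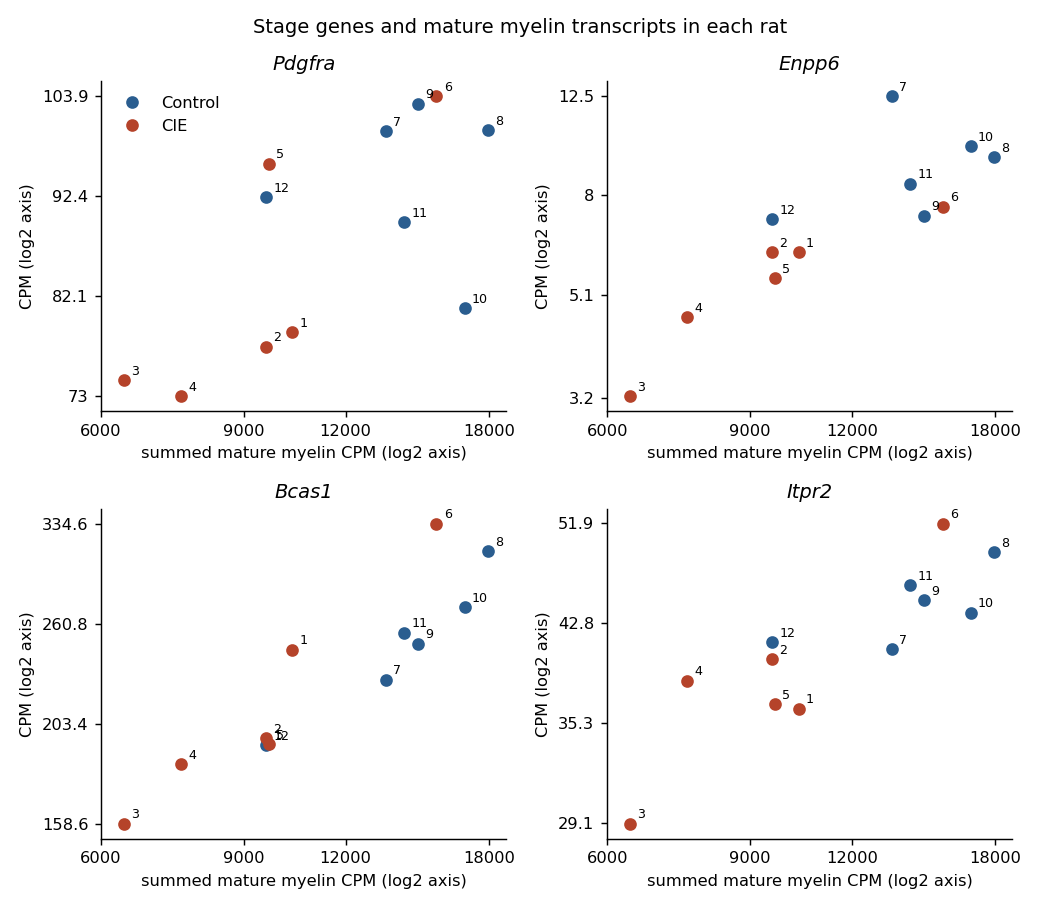
Expression of *Pdgfra*, *Enpp6*, *Bcas1* and *Itpr2* (vertical axes, CPM on a log2 scale) against the summed CPM of 20 mature myelin genes (horizontal axes, log2 scale) in each rat, with rat numbers beside the points, Control in blue and CIE in red. *Bcas1* rises with myelin in both groups (r = 0.96 in each), while the Control rats of *Pdgfra* show no such order (r = -0.03).

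Whether a member changed by as much as the mature myelin transcripts was tested on the log2 ratio of the member to the summed myelin level in each rat. The mean log2 myelin level itself was lower by a difference of -0.58 in the CIE group (exact permutation p = 0.0346). The ratio of *Enpp6* differed by -0.15 (CIE minus Control mean log2 ratio, SE 0.15, exact permutation p = 0.359), the only member with a negative difference. The ratio of *Bcas1* was higher in the CIE group by 0.35 (SE 0.07, exact permutation p = 0.00433), that of *Cspg4* by 0.68 (SE 0.16, exact permutation p = 0.00433), that of *Neu4* by 0.47 (SE 0.17, exact permutation p = 0.0260) and that of *Itpr2* by 0.37 (SE 0.14, exact permutation p = 0.0303). The ratio of *Pdgfra* differed by 0.41 (exact permutation p = 0.0519) and that of *C1ql1* by 0.45 (exact permutation p = 0.0563). A higher ratio was common, as the same denominator was lower for every gene. The median difference over all genes was 0.58, and 48.3% of all genes had an exact p below 0.05, against 4 of 9 members. Adjusted over all genes, 0 ratios passed 5% FDR (0.00%), the smallest adjusted p this test gave being 0.0994.

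Pairs of members differed in how closely they varied together across rats. With group means removed, log2 levels of *Pdgfra* and *Cspg4* correlated at r = 0.89 over 12 rats, those of *Pdgfra* and *C1ql1* at 0.81, and those of *Bcas1* and *Itpr2* at 0.84. By contrast *Lhfpl3* correlated with *Enpp6* at -0.10 and with *Bmp4* at -0.09, and *C1ql1* correlated with *Enpp6* at 0.01. The pairs did not sort by stage. Across stages, *Cspg4* correlated with *Itpr2* at 0.74 and with *Bcas1* at 0.70, and *Pdgfra* with *Neu4* at 0.72. Within the precursor genes, *Cspg4* and *Lhfpl3* gave 0.31. These values describe pairs that share libraries and depth, and no test was made of them. CIE rat 6 had the highest CIE value in each of the 9 members, whereas it was the highest CIE rat in 21.0% of all genes tested. It also had the highest mature myelin level of the CIE group (15522 CPM, against 6402 to 10320 CPM in the other 5 rats). In the Control group no rat held this place, the highest values being shared among Control rat 8 (5 members), rat 9 (2 members), rat 7 (1 member) and rat 12 (1 member).

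**Figure D5:**
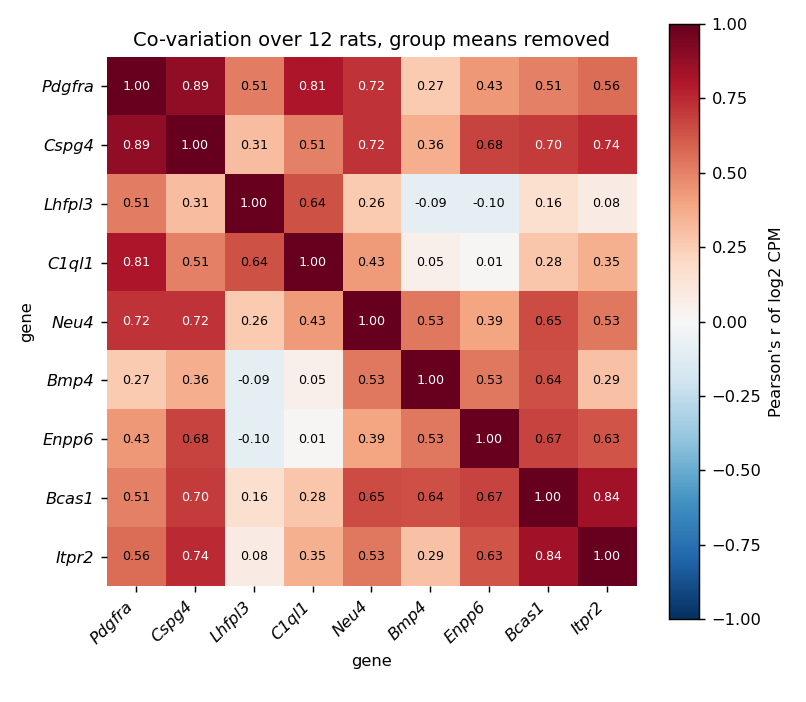
Pearson's r between log2 CPM of each pair of members over 12 rats after removal of the group means, with color and printed values from -1 to 1. The highest values are those of *Pdgfra* with *Cspg4* (0.89), *Bcas1* with *Itpr2* (0.84) and *Pdgfra* with *C1ql1* (0.81).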

How the data were processed

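Per the labels and the study's methods, the authors mapped reads of poly-A libraries to Rnor_6.0 with BWA, counted them per gene with HTSeq and analyzed them with DESeq2 1.26. The deposited table holds raw counts of 37209 genes, 7757 of them at 0 in every rat. Gene annotation, strand and overlap settings are not given in the sources used here. Gene names were stripped of a leading space and matched by symbol, for which *Cemip2* and *Adgrb3* gave no match. Groups were taken from the treatment label.

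Counts were analyzed in R 4.3.3 with edgeR 4.0.16 (TMM, filterByExpr, quasi-likelihood F test, two-sided, no covariates), limma 3.58.1 and DESeq2 1.42.0, and in Python 3.11.15 with scipy 1.17.1. FDR values are Benjamini-Hochberg adjusted over the 20944 genes tested. SEs were derived from the fold change and the F statistic. Correlations and ratios used log2(CPM + 0.05), with 100000 permutations for correlations. The fits were tested on simulated data.

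Named genes are the 10 members, the 2 genes of each other list with the smallest p, and the 3 genes most like each member. *Pdgfa*, *Olig2*, *Lims2* and *Aurkb* are named beyond this rule, chosen after their values were seen. Members, lists, tests and alternatives were chosen with earlier results of these data known. P values set differences and correlations against the spread between these rats, each of which gave 1 library. Promoters and neighbors come from RefSeq (GRCr8), whose build differs from that of the counts.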

Additional observations from a re-analysis of the deposited data

Results flagged for a closer look

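*Lhfpl3* in Control rat 10, at 39.7 CPM, lay far below the other 5 Control rats. Its gap to the next rat was 0.754 of the range of the group, above the 95% critical value of Dixon's test for 6 samples. It was the only value so marked among 18 groups of 6 values, and chance marks about 1 in 20. The same library had the highest striatal marker level of the 12 rats. The log2 fold change of *Lhfpl3*, -0.12 over all rats, was -0.21 without Control rat 10 and -0.023 with cortical and striatal marker scores as covariates.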

How the results depend on the processing

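Each rat was left out in turn, and 7 other planned fits were run across all genes. The number of members with a nominal p below 0.05 was 1 in the edgeR fit, 4 with limma-voom with sample quality weights and 1 to 4 with 1 rat left out (4 without CIE rat 6). At 5% FDR it was 0 in edgeR, 1 in DESeq2 and 0 with any 1 rat left out. Over all genes, the nominal count of 1740 was 3596 with limma-voom and 1347 to 2811 with 1 rat left out (lowest without Control rat 9, highest without CIE rat 3). The count of 76 at 5% FDR was 265 in DESeq2, 234 with limma-voom, 38 without CIE rat 2 and Control rat 10 (added after the values were seen) and 34 to 154 with 1 rat left out. Higher calls made up 48.1% of the nominal calls with TMM, 60.3% with total counts only and 61.1% without Control rat 10. The other precursor genes lower in the CIE group numbered 2, or 4 with limma-voom, and 2 to 3 with 1 rat left out. The newly formed list ranged from 5 to 9 and the mature myelin list from 11 to 17 with 1 rat left out. Of the lineage factors 1 was lower, 2 without a filter, 3 with limma-voom, 2 with region scores as covariates and 1 to 3 with 1 rat left out. With 1 rat left out, 4 to 6 members correlated with the myelin level and 3 to 7 differed in their ratio to it, at a p below 0.05. Over all 12 rats, 9.50% of all genes tested did so for the correlation and 48.3% for the ratio. Those shares were not computed with 1 rat left out, so these counts are not read as a result about the members. With 1 rat left out the *Neu4* log2 fold change lay between -0.21 and 0.037 and reversed without CIE rat 4, and the *Bmp4* ratio difference lay between -0.22 and 0.80 and reversed without Control rat 12. The causes were not tested. Among single members, 424 repeated values kept direction and side of the threshold, 13 came to pass it and 11 to miss it, beside the 2 reversals. No paired analysis was made, because per the study the rats were assigned to the groups at random and the labels give no pairs. Intervals limit what these 6 rats against 6 could detect, above all for *Bmp4*.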

Other observations

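The spread between rats was larger in the CIE group in each of the 9 members, measured as the coefficient of variation of CPM. It was 28.0% against 6.98% in *Neu4*, 19.3% against 7.04% in *Itpr2*, 14.4% against 6.96% in *Cspg4* and 15.3% against 8.75% in *Pdgfra*. In *Bcas1* it was 29.0% against 16.1%, in *C1ql1* 13.3% against 9.71% and in *Enpp6* 27.0% against 21.9%. The values were close in *Lhfpl3* (18.2% against 16.9%) and *Bmp4* (59.1% against 57.5%). Over all genes tested, 62.2% had the larger value in the CIE group. Without CIE rat 6 this held for 6 of 9 members and for 56.7% of all genes. The difference in spread was not tested.

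The genes whose levels were most like those of each member were found among all genes tested, by Pearson's r of log2 CPM over the 12 rats after removal of the group means. Those closest to *Bcas1* were LOC103694042 (r = 0.99), *S1pr5* (0.98) and *Ttyh2* (0.98). Those closest to *Itpr2* were *Ptpn11* (0.97), *Tbc1d12* (0.97) and *Kcnj10* (0.95). *Cspg4* was closest to *Vcan* (0.95), *March8* (0.95) and *Plekha1* (0.93), and *Pdgfra* to *Anapc10* (0.95), *Ece1* (0.91) and *Ptprz1* (0.91). *Lhfpl3* was closest to *Dmd* (0.97), *Kcnk10* (0.96) and LOC102550585 (0.95), and *C1ql1* to *Csk* (0.92), *Pbx3* (0.91) and LOC103690411 (0.91). *Enpp6* was closest to *Piga* (0.93), *Baz2a* (0.92) and *Hrc* (0.92), *Neu4* to *Lcat* (0.93), *Bmf* (0.92) and LOC103692211 (0.91), and *Bmp4* to LOC683463 (0.88), *Appl2* (0.88) and *Ccdc109b* (0.86). *Vcan* and *Ptprz1* were also on the list of other precursor genes. As each was picked as the highest over all genes tested, r is a description here, with no test.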
